A study of Mus musculus with 8 samples.

Results

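The 7 genes described here are those by which the blood held in a sample of tissue can be followed at the RNA level. They are the alpha-globin genes Hba-a1 and Hba-a2, the beta-globin genes Hbb-bs and Hbb-bt, the heme synthesis gene Alas2, and the neutrophil genes S100a8 and S100a9. They were taken by symbol from the 16686 rows with a gene ID in the deposited gene table, and each symbol was found on 1 row. Their counts in the 8 libraries were scaled to CPM, the count of a gene relative to the total of its library, with TMM factors that correct the totals for differences in composition.

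The study asked what the loss of fast skeletal myosin-binding protein C, a thick filament protein of fast muscle fibres, does to aged muscle. RNA came from the tibialis anterior (TA), a fast muscle of the lower leg, of male mice on the FVBN background with an age label of 22 months. The WT group held 4 mice with an intact Mybpc2 gene, and the C2-/- group held 4 mice in which exons 2 to 22 of Mybpc2 had been exchanged, in every cell of the body, for a Neo cassette with LoxP sites on both sides. Each mouse gave 1 library of mRNA enriched with oligo(dT) beads. Whole muscle pieces were used, so blood in their vessels was sequenced with them. Whether the vessels were flushed before these muscles were taken is not given in the sources used here.

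Adult hemoglobin consists of alpha-globin and beta-globin chains with 1 heme each. Red cells lose their nucleus, but young red cells still carry globin mRNA, which other cells of a muscle do not make in quantity. Alas2 is the red cell form of the enzyme that starts heme synthesis, and its relative Alas1 does so in all other cells. S100A8 and S100A9 form calprotectin, a calcium-binding protein pair that fills the cytosol of neutrophils and is also made by monocytes.

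Stretches upstream of the genes are shown as background, and whether they bear on the levels in these mice was not tested. They come from the RefSeq promoter table for GRCm38.p6, which held all 7 genes, and give the 250 bases before the annotated start site, read along the gene's own strand. Hba-a1 lies on the plus strand and its window is chr11:32283422-32283671. The window of Hbb-bs on the minus strand is chr7:103827929-103828178, that of Alas2 on the plus strand chrX:150547167-150547416. S100a8 on the plus strand has the window chr3:90668821-90669070, and S100a9 on the minus strand chr3:90695722-90695971. Capitals mark these letters on either strand: AGATAA or TGATAA, which share the core of sites for GATA factors, the CACCC box as CCACACCC, the CCAAT box, the TATA box as TATAAA, and a core of PU.1 sites as GAGGAA. In S100a8 the second PU.1 match and the TATA box touch each other.
Hba-a1: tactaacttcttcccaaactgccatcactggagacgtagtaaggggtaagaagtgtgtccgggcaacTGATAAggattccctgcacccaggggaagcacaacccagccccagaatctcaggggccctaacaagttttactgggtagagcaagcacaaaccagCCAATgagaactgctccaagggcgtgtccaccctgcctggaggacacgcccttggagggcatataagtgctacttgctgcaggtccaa
Hbb-bs: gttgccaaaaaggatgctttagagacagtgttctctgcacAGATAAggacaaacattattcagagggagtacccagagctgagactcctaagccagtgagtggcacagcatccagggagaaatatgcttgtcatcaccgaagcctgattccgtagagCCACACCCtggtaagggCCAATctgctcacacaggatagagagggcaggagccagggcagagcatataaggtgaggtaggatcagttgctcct
Alas2: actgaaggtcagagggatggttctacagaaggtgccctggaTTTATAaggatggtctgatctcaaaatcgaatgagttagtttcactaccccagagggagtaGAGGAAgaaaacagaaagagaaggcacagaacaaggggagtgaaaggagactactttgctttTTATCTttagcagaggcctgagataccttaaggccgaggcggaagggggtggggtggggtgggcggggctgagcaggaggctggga
S100a8: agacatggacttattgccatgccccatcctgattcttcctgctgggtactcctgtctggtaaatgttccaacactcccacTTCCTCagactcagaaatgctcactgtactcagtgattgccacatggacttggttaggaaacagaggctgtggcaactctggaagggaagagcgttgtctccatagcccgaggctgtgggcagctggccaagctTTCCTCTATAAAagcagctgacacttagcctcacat
S100a9: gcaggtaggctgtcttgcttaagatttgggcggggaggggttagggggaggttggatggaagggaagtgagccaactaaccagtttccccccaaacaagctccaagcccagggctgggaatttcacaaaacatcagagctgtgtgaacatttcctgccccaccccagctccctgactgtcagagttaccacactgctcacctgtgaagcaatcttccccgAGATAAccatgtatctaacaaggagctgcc

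AGATAA stood in 3 of the 7 windows (Hbb-bs, Alas2 and S100a9), against 9.99% of 32851 windows of the same length in the table. TGATAA stood in the windows of both alpha-globin genes, against 7.94% of all windows. CCACACCC was found in that of Hbb-bs alone, against 3.2% of all windows, and CCAAT in those of all 4 globin genes, against 33.8%. TATAAA stood in 3 windows (Hbb-bt, Alas2 and S100a8) and in 12.4% of all. GAGGAA stood in those of S100a8 and Alas2, against 23.3%. The C/EBP letters TTGCGCAA and TTGCNNCAA, in which N is any base, were in none of the 7 windows, against 0.164% and 1.74% of all. These are matches of letters only, and several of them are common.

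The copies within each globin pair are close to each other. The windows of Hba-a1 and Hba-a2 shared an unbroken run of 247 of 250 bases, whereas the longest run shared by those of Hbb-bs and Hbb-bt was 14 bases. In the GENCODE transcripts the coding sequences of Hba-a1 and Hba-a2, each 429 bases with the stop codon, differed at 1 base (99.8% identity). Those of Hbb-bs and Hbb-bt, each 444 bases, also differed at 1 base. Of all 100-base windows of the Hba-a2 transcript, 74.5% occurred unchanged in that of Hba-a1, so many reads cannot be given to 1 copy with certainty. In the deposited table the Hba-a1 row spans 32283672 to 32284486 on chromosome 11, and the Hba-a2 row (32283672 to 32297310) overlaps it. Values of single copies are therefore uncertain.

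Library totals lay between 25425993 and 29747692 counts, so that 3 counts, the floor used here for counting error, were worth between 0.101 and 0.118 CPM. Mybpc2, the targeted gene, was read at 4963, 5448, 5099 and 7389 CPM in WT mice 1 to 4 and at 4.35, 4.02, 38.3 and 3.85 CPM in C2-/- mice 1 to 4, so every library matched its genotype label, and C2-/- mouse 3 held more than the other C2-/- mice. Muscle markers were high in every mouse: Acta1, skeletal muscle actin, lay between 65365 and 75795 TPM (a level relative to the library total that is corrected for transcript length), and Ckm, muscle creatine kinase, between 27872 and 33189 TPM. WT mouse 2 held the highest value of the 8 mice for 27.5% of the 12542 tested genes, more than any other mouse (6.59% to 12.6%).

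Alpha globin differed widely between mice, with no difference between the genotypes beyond that spread. Hba-a1 lay at 4276, 6195, 475 and 768 CPM in WT mice 1 to 4. In C2-/- mice 1 to 4 it lay at 3736, 894, 1456 and 5832 CPM. WT mice 1 and 2 and C2-/- mice 1 and 4 were high, the other mice were low, and the genotypes overlapped over nearly the whole range, which was 13-fold. The means were 2928 ± 2779 CPM in WT and 2979 ± 2264 CPM in C2-/- (SD, n = 4 each). The log2 fold change (C2-/- minus WT) was 0.02 with a standard error of 0.79 and a 95% interval from -1.73 to 1.78 (edgeR quasi-likelihood test, Benjamini-Hochberg adjusted p = 0.999), so the data allow anything from 0.301 to 3.44 times the WT level. In bulk tissue, fewer cells of a type and less RNA per cell cannot be told apart.

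Hba-a1 was among the most abundant mRNAs of these muscle samples. On the TPM scale its level ranked between 8 and 51 from the top of all genes, and came to between 2.94% (WT mouse 3) and 31% (C2-/- mouse 4) of that of Acta1. Globin counts, with the rows Hbb-b1 and Hbb-b2 described below, took 0.578%, 0.828%, 0.0655% and 0.097% of all counts in WT mice 1 to 4 and 0.51%, 0.133%, 0.204% and 0.811% in C2-/- mice 1 to 4. At the library totals given above, the counting error of these shares is small beside the spread between mice.

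Hba-a2 was read at 23.7, 28.3, 1.8 and 1.37 CPM in WT mice 1 to 4. In C2-/- mice 1 to 4 it was read at 17.5, 2.94, 6.4 and 2.43 CPM. It followed Hba-a1 in 7 of the 8 mice, while in C2-/- mouse 4 it was low although Hba-a1 was high. The share of alpha-globin counts given to the Hba-a2 row was 0.0416% in that mouse and between 0.178% and 0.55% in the others. The log2 fold change was -0.92 (95% interval -2.99 to 1.15, edgeR adjusted p = 0.968), and with the counts of both copies summed it was 0.02.

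Beta globin was hardly counted under the listed symbols. Hbb-bs had 4.86 and 8.80 estimated counts in WT mice 1 and 2 and 0 in the other 6 mice, where a count of 0 allows up to 3 counts. Hbb-bt had 4.23, 7.90, 1.49 and 0 counts in WT mice 1 to 4 and 0, 0, 3.59 and 4.22 in C2-/- mice 1 to 4. Neither gene passed the filter on low counts, and no fold change is given. Both lie on chromosome 7 in GRCm38.p6 (Hbb-bs from 103826523 to 103827928 and Hbb-bt from 103812524 to 103813923), 59.3 Mb from the targeted Mybpc2 gene.

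The beta-globin reads stood on 2 other rows, Hbb-b1 and Hbb-b2, which the table places on a scaffold outside the chromosomes. Hbb-b1 and Hbb-b2 are the names for the adult beta-globin genes of the diffuse haplotype of laboratory mice, and Hbb-bs and Hbb-bt those of the single haplotype. Hbb-b1 lay at 1225, 2153, 149 and 246 CPM in WT mice 1 to 4. In C2-/- mice 1 to 4 it lay at 1099, 347, 522 and 1858 CPM. The order of the mice was that of Hba-a1. Hbb-bs and Hbb-bt together took between 0% and 0.0339% of the beta-globin counts, in mice of both genotypes. Which haplotype these mice carry was not tested. Both rows were chosen after their values were seen.

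Hbb-b1 had the same mean in both genotypes within the spread (943 ± 942 CPM in WT and 957 ± 682 CPM in C2-/-, SD, n = 4 each), with a log2 fold change of 0.02 (95% interval -1.70 to 1.74, edgeR adjusted p = 0.999). Hbb-b2 was read at 138, 325, 15 and 28.3 CPM in WT mice 1 to 4 and at 120, 39.4, 63.2 and 201 CPM in C2-/- mice 1 to 4. Its log2 fold change was -0.26 (95% interval -2.09 to 1.58, edgeR adjusted p = 0.99). Hbb-b2 took between 9.14% and 10.8% of the counts of both rows in 7 mice and 13.1% in WT mouse 2. The intervals of both rows overlap on the scaffold, so this split is uncertain. In the deposited TPM, which are corrected for transcript length, alpha globin exceeded beta globin in every mouse, by a ratio between 2.66 and 3.61. How the reads and lengths given to the scaffold rows bear on this ratio was not tested.

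Alas2, the heme synthesis enzyme of red cell precursors, put the mice in the same order as Hba-a1 and Hbb-b1, at a far lower level (between 5.95 and 57.9 TPM, against 1932 to 22622 TPM for Hba-a1). It lay at 41.9, 67.6, 5.79 and 7.16 CPM in WT mice 1 to 4. In C2-/- mice 1 to 4 it lay at 24.5, 10.3, 17.8 and 48.7 CPM. WT mouse 2 and C2-/- mouse 4 were again highest and WT mice 3 and 4 lowest, and the genotypes overlapped (30.6 ± 29.8 CPM in WT and 25.3 ± 16.6 CPM in C2-/-, SD, n = 4 each). The log2 fold change was -0.27 with a standard error of 0.73 (95% interval -1.90 to 1.35, edgeR adjusted p = 0.99). Alas2 counts came to between 0.653% (C2-/- mouse 1) and 1.22% (C2-/- mouse 3) of the alpha-globin counts, a 1.87-fold range beside the 11.7-fold range of Alas2 itself.

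**Figure D1:**
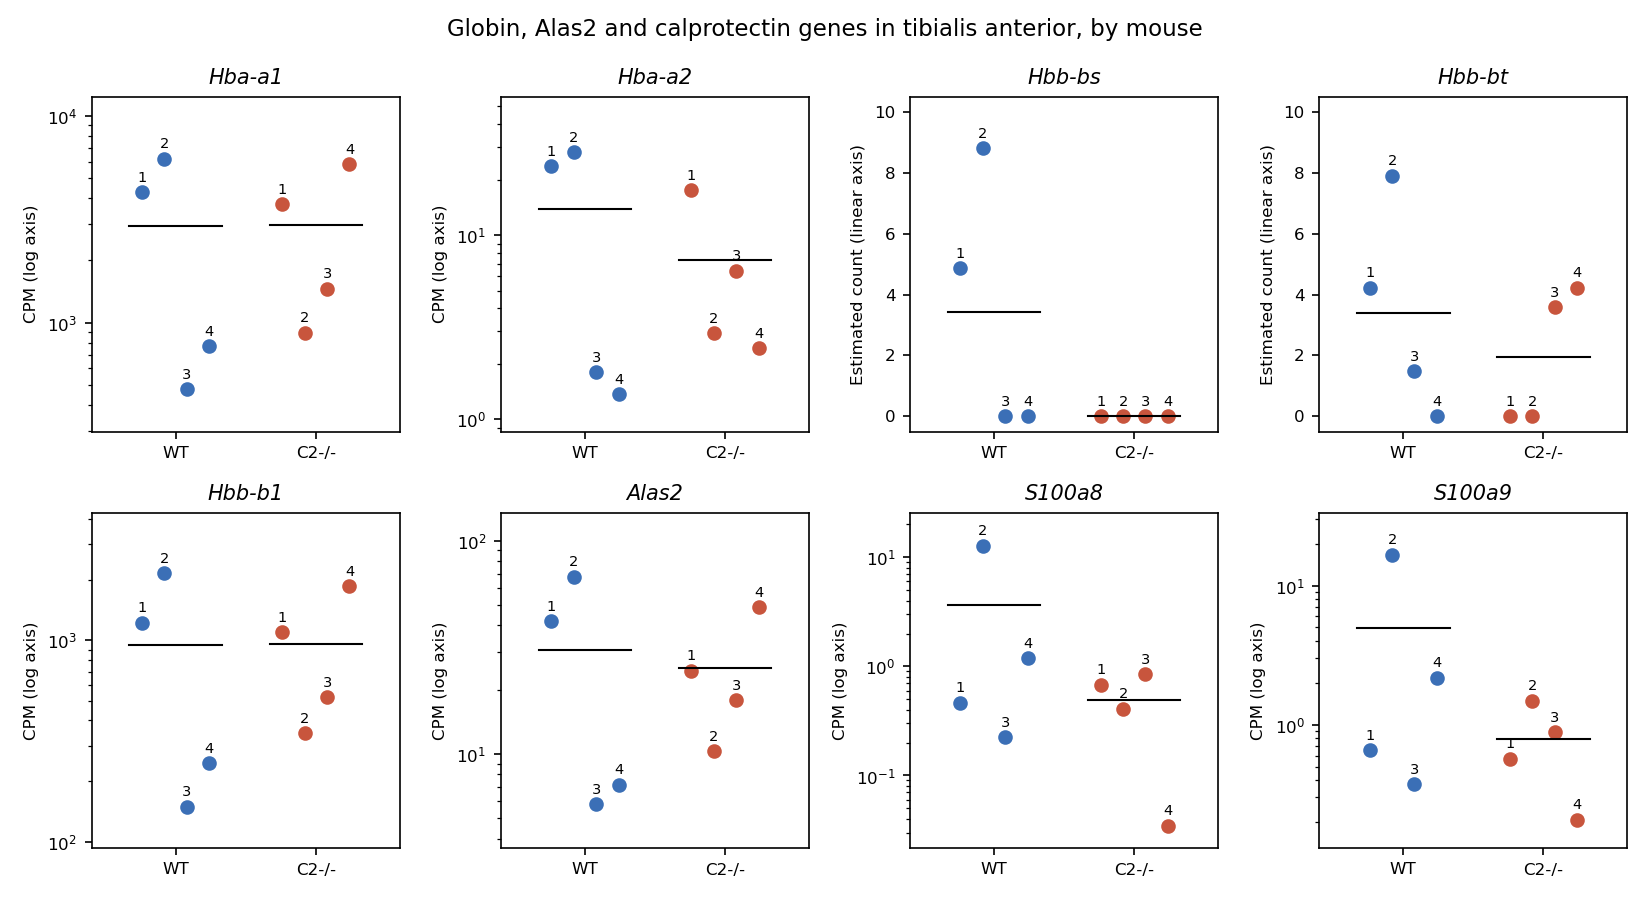
Each point is 1 mouse, labelled with its replicate number, for the 7 genes and Hbb-b1. The vertical axes are log axes of CPM, except for Hbb-bs and Hbb-bt, where they are linear axes of estimated counts, and horizontal lines are group means (4 mice each). Hba-a1, Hbb-b1 and Alas2 give the mice in the same order, whereas S100a8 and S100a9 are high in WT mouse 2 alone, at 12.8 and 16.7 CPM.

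S100a8 and S100a9 showed another pattern, set by 1 mouse. S100a8 lay at 0.463, 12.8, 0.224 and 1.19 CPM in WT mice 1 to 4 and at 0.681, 0.409, 0.851 and 0.0347 CPM in C2-/- mice 1 to 4. S100a9 lay at 0.655, 16.7, 0.373 and 2.17 CPM in WT mice 1 to 4 and at 0.568, 1.49, 0.886 and 0.208 CPM in C2-/- mice 1 to 4. WT mouse 2 held 76.8% of the S100a8 level and 72.5% of the S100a9 level summed over the 8 mice. The other WT mice overlapped with the C2-/- mice. In C2-/- mouse 4 only 1 count of S100a8 and 6 of S100a9 were found, although this mouse was among the richest in globin.

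The group means of S100a8 were 3.67 ± 6.1 CPM in WT and 0.494 ± 0.356 CPM in C2-/- (SD, n = 4 each), and those of S100a9 were 4.98 ± 7.87 and 0.787 ± 0.543 CPM. The log2 fold change of S100a8 was -2.89 with a standard error of 1.18 (95% interval -5.52 to -0.26, edgeR adjusted p = 0.919). That of S100a9 was -2.66 with a standard error of 1.08 (95% interval -5.06 to -0.26, edgeR adjusted p = 0.914). Without WT mouse 2 these values were -0.34 (95% interval -2.03 to 1.35, edgeR adjusted p = 0.999) and -0.44 (95% interval -1.95 to 1.07, edgeR adjusted p = 0.994). The difference between the means therefore rests on that mouse. The ratio of S100a9 to S100a8 on the TPM scale lay between 0.591 and 1.27 in 6 mice, and the 2 higher ratios, 2.57 and 4.35 in C2-/- mice 2 and 4, rest on few counts.

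**Figure D2:**
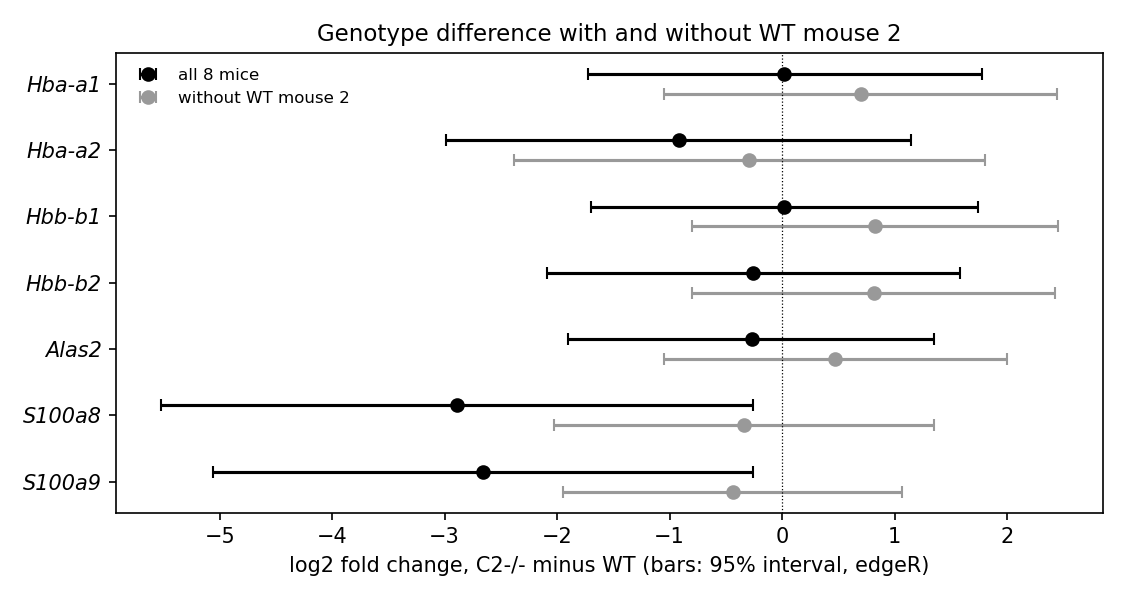
Points are log2 fold changes (C2-/- minus WT, horizontal axis) from edgeR and bars their 95% intervals, for the tested genes and both scaffold beta-globin rows, with all 8 mice in black and without WT mouse 2 in grey. The intervals of S100a8 and S100a9 end at -0.26 with all mice and reach 1.35 and 1.07 without WT mouse 2.

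None of the 5 genes that passed the filter was called at an adjusted p under 0.05 and more than 1.5-fold, a rule that called 0.0319% of all 12542 tested genes (4 genes). Of the 5 genes, 2 had an unadjusted edgeR p under 0.05 and were lower in C2-/- (S100a8 and S100a9), against 1.91% of all tested genes in that direction. Neither kept such a p with limma-voom (log2 fold changes of -1.81 and -1.48) or with the red cell level as a covariate in edgeR (-2.22 and -2.07). None was higher at that level, against 3.38% of all tested genes. The CPM values of the genotypes overlapped for all 5 genes, while they did not overlap for 3.38% of all tested genes. Over all tested genes the log2 fold change had a median of -0.02. No adjusted p of any of the 5 genes was under 0.529 in the alternatives in which it had one.

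These genes varied more between mice than nearly all others. The SD of log2 CPM over the 8 mice was 1.45 for Hba-a1, 1.73 for Hba-a2, 1.32 for Alas2, 1.99 for S100a8 and 1.82 for S100a9, whereas the median over all tested genes was 0.26. Between 99.1% (Alas2) and 99.8% (S100a8 and S100a9) of the tested genes had a smaller SD.

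The red cell genes varied together over the 8 mice (6 pairs of genes were correlated, on log2 CPM, with two-sided exact permutation tests over 40320 pairings and Benjamini-Hochberg adjustment). Hbb-b1 took the place of Hbb-bs, which had no count in 6 mice. For Hba-a1 and Hbb-b1, Pearson's r was 0.995 (exact p = 2.48e-05, the smallest the test allows, adjusted 4.96e-05) and Spearman's rho was 1 (exact p = 4.96e-05, adjusted 9.92e-05). Without the 2 mice farthest from the median of Hba-a1 (WT mice 3 and 4), r was 0.993 (exact p = 0.00139, adjusted 0.00278). For Hbb-b1 and Alas2, r was 0.986 and rho 1, with the same p-values as that pair, and r was 0.972 without WT mice 3 and 4. For Hbb-b1 and Hbb-b2, r was 0.995 and rho 1, again with these p-values, and r was 0.988 without those mice. The intervals of these rows overlap and the split of reads between them is uncertain. This pair therefore cannot show that separate genes vary together.

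Hba-a1 and Hba-a2 were less closely related, with r = 0.72 (exact p = 0.0562, adjusted 0.0674) and rho = 0.738 (exact p = 0.0458, adjusted 0.055). Without the 2 farthest mice r was 0.484 (exact p = 0.339), whereas without C2-/- mouse 4, in which the Hba-a2 row was low, it was 0.97. S100a8 and S100a9 had r = 0.947 (exact p = 0.00134, adjusted 0.00201) and rho = 0.833 (exact p = 0.0154, adjusted 0.0231). Without WT mouse 2 and C2-/- mouse 4 their r was 0.658 (exact p = 0.154, adjusted 0.231), so this relation rests on those mice.

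A relation between red cell and neutrophil mRNA was not detected. For Hbb-b1 and S100a9, r was 0.199 (exact p = 0.673, adjusted 0.673) and rho 0.0476 (exact p = 0.935, adjusted 0.935). Without WT mice 3 and 4 r was 0.166, and without WT mouse 2 it was -0.48. In WT mouse 2 and C2-/- mouse 4 the summed CPM of the 4 globin genes was 6224 and 5835. That of S100a8 and S100a9 was 29.5 and 0.243. WT mouse 2 was the highest of the 8 mice in both sums.

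**Figure D3:**
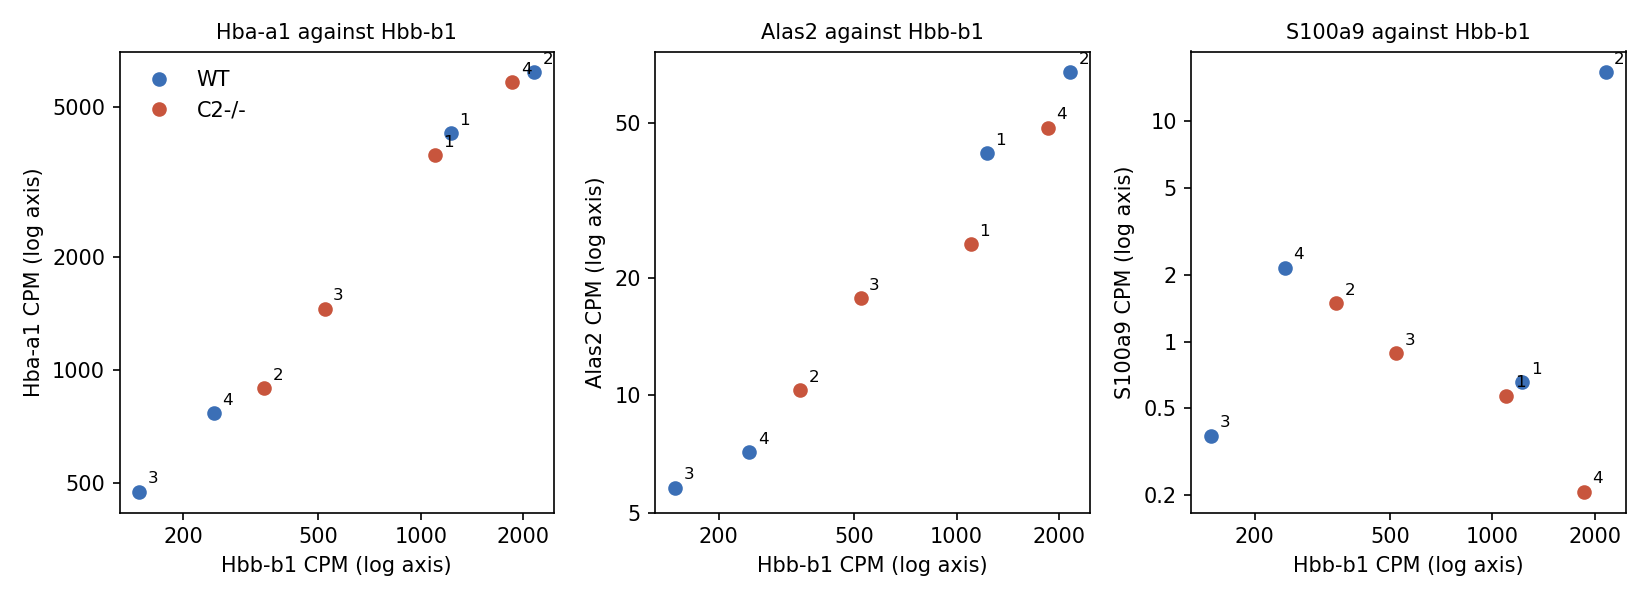
Each point is 1 mouse, labelled with its replicate number, with Hbb-b1 CPM on the horizontal log axis and the CPM of Hba-a1, Alas2 or S100a9 on the vertical log axis. Hba-a1 and Alas2 follow Hbb-b1 along a line (r = 0.995 and 0.986), while S100a9 does not (r = 0.199).

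Among the other globin genes, 4 of the 8 in the table were tested, 2 with a higher and 2 with a lower estimate in C2-/-, and the median log2 fold change was -0.12. The list includes Hbb-b1 and Hbb-b2, and without WT mouse 2 it had 3 higher and 1 lower estimate and a median of 0.58. Only Cygb, the cytoglobin of fibroblasts and other tissue cells, had an unadjusted edgeR p under 0.05, with 21.5 ± 1.48 CPM in WT and 27.4 ± 5.77 CPM in C2-/- (log2 fold change 0.35, adjusted p = 0.941). Myoglobin (Mb), the oxygen store of the muscle fibre itself, lay between 2985 and 5914 CPM.

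Of the 18 tested genes of the red cell list, 6 had higher and 12 lower estimates in C2-/-, none with an unadjusted edgeR p under 0.05, and the median was -0.03. The highest mean CPM were those of Sptb and Ank1, a spectrin and an ankyrin of the red cell membrane skeleton which muscle fibres make too, at 589 ± 113 and 472 ± 152 CPM in WT and 570 ± 46.9 and 468 ± 40.8 CPM in C2-/-. Slc4a1, the anion exchanger of the red cell membrane (named after its values were seen), had 13, 166, 4 and 3 counts in WT mice 1 to 4 and 11, 15, 37 and 15 in C2-/- mice 1 to 4. It was highest in WT mouse 2, like the globins, but not high in C2-/- mouse 4. The erythroid factors Klf1 and Gata1 had at most 5 and 3 counts.

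The 11 genes of the heme synthesis list had 3 higher and 8 lower estimates, with a median of -0.06. None was past an unadjusted edgeR p of 0.05, and Slc25a38 among them is also in the red cell list. Alas1, the form of the first enzyme outside red cells, lay at 163 ± 47.1 CPM in WT and 150 ± 14.9 CPM in C2-/-, and Fech, which inserts iron, at 146 ± 12.7 and 162 ± 14.8 CPM. Alas1 lay between 104 and 219 CPM and was lowest in WT mouse 2, where Alas2 was highest. Of 16 tested genes of heme and iron handling, 8 were higher and 8 lower (median -0.00). Lrp1, the receptor for heme bound to hemopexin and for many other ligands, was at 40.5 ± 9.03 CPM in WT and 61.1 ± 4.63 CPM in C2-/- (log2 fold change 0.59, edgeR adjusted p = 0.608), and was the only one with an unadjusted p under 0.05. Hmox1, the heme-degrading oxygenase (named after its values were seen), was at 24.9 CPM in WT mouse 2 and at most 10.8 CPM in the others.

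The neutrophil list followed S100a8 and S100a9. Of its 30 genes in the table, 25 had their highest share of counts in WT mouse 2, which held the highest share for 19.7% of all 16686 rows. The 10 genes that passed the filter had 1 higher and 9 lower estimates in C2-/-, 5 of the 9 with an unadjusted edgeR p under 0.05, and a median of -0.94. Without WT mouse 2 the counts were 4 higher and 6 lower, none had an unadjusted p under 0.05, and the median was -0.28. Lcn2, lipocalin 2, had 24, 1209, 40 and 25 counts in WT mice 1 to 4 and 35, 71, 51 and 20 in C2-/- mice 1 to 4. Retnlg, a resistin-like protein of neutrophils, had 2, 275, 3 and 29 counts in WT mice 1 to 4 and 11, 14, 9 and 3 in C2-/- mice 1 to 4.

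The log2 fold changes with all mice were -2.88 for Lcn2, -3.05 for Retnlg, -1.79 for the chemokine receptor gene Cxcr2 and -1.49 for the histidine decarboxylase gene Hdc (edgeR adjusted p between 0.878 and 0.919). Without WT mouse 2 they were 0.55, -0.29, -0.74 and -0.89. Ngp and Ltf, granule proteins made while neutrophils mature in the marrow, did not pass the filter. They had 159 and 42 counts in WT mouse 2 and at most 4 and 3 in any other mouse. Of the 5 listed genes of earlier granule precursors in the table none was tested. Chil3 had 17 counts in WT mouse 2, and Elane, Prtn3, Ctsg and Cebpe at most 4 in any mouse.

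**Figure D4:**
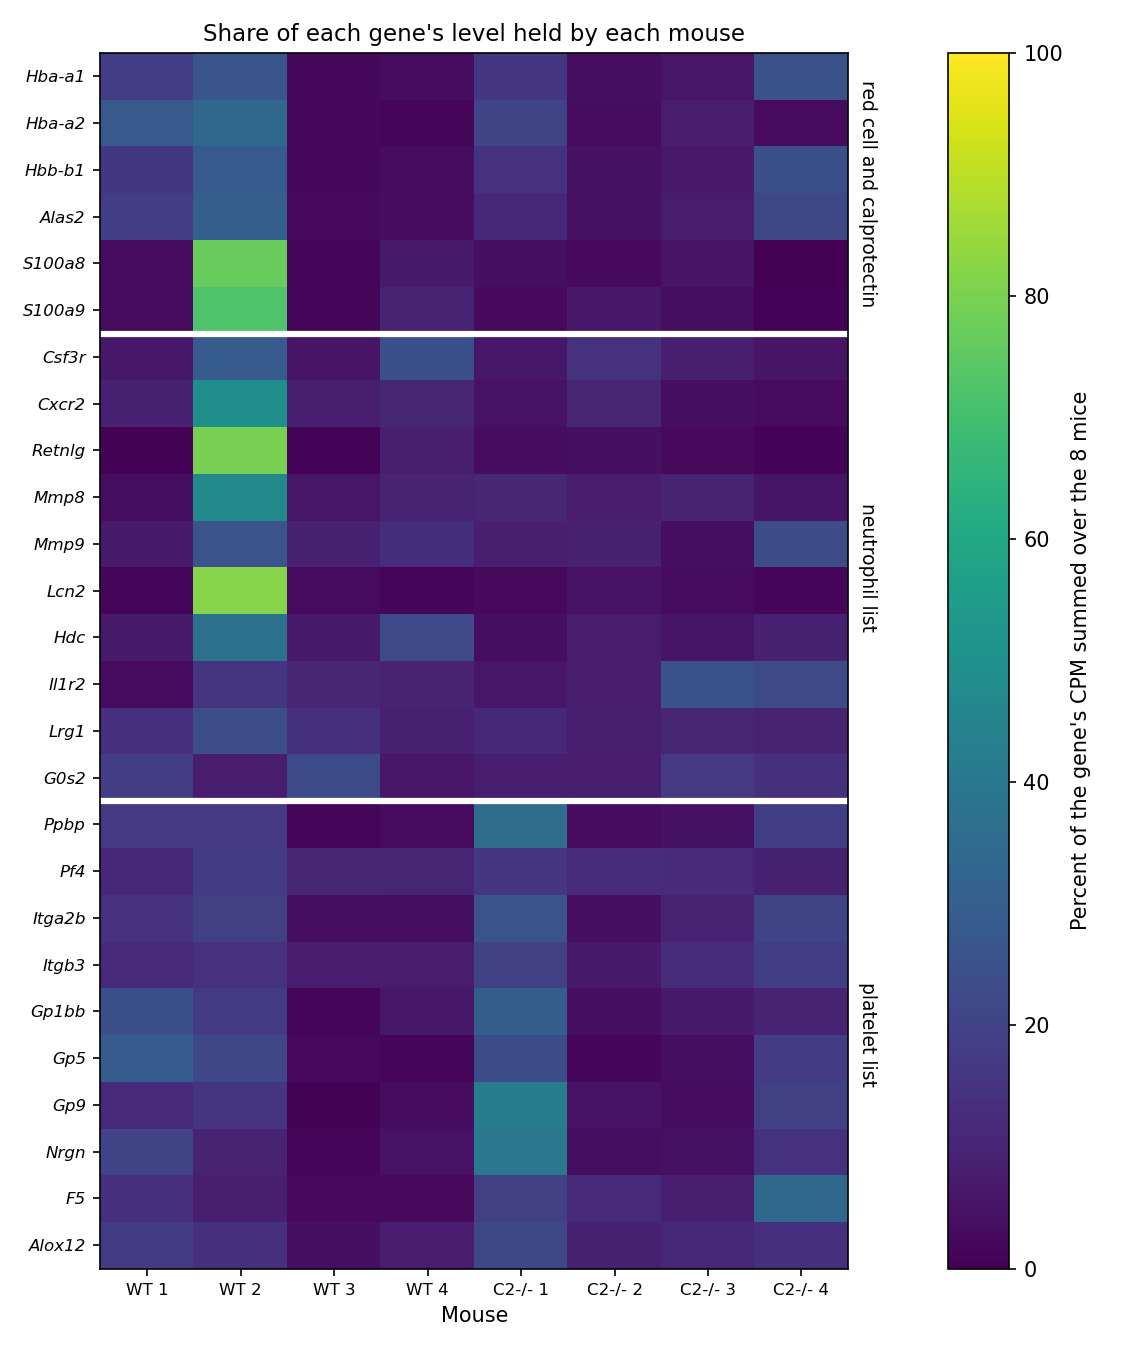
Rows are genes, columns the 8 mice, and the colour gives the percent of the CPM of a gene, summed over the mice, that each mouse held (scale from 0 to 100%). WT mouse 2 holds 76.8% of S100a8, 72.5% of S100a9, 81.8% of Lcn2 and 79.4% of Retnlg, whereas the platelet genes Gp9 and Nrgn are highest in C2-/- mouse 1, with 42.4% and 39.9%.

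The S100 relatives of the pair are expressed in many cell types. Of 9 tested genes of the list, 7 had higher and 2 lower estimates in C2-/- (median 0.12). The list also holds S100pbp (log2 fold change -0.12), which encodes a binding protein and no S100 protein, so 8 of the 9 are S100 genes, with S100b as the only lower one (-0.91). S100a6 and S100a4, both known from fibroblasts among other cells, had an unadjusted edgeR p under 0.05. S100a6 was at 14.8 ± 4.75 CPM in WT and 23.6 ± 4.29 CPM in C2-/- (log2 fold change 0.68, edgeR adjusted p = 0.755), S100a4 at 1.96 ± 1.03 and 4.39 ± 2.2 CPM (log2 fold change 1.16, edgeR adjusted p = 0.892). Of 4 tested receptor genes for calprotectin 1 was higher and 3 lower (median -0.33), and without WT mouse 2 the tally was 2 and 2 (median -0.05). Bsg was at 808 ± 117 CPM in WT and 625 ± 133 CPM in C2-/-, and Cd36 was at 203 ± 58.7 and 165 ± 8.36 CPM. Neither had an unadjusted edgeR p under 0.05.

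Platelet genes varied between mice as well, with C2-/- mouse 1 highest. It held the highest share of counts for 13 of the 16 listed genes and for 14% of all rows. Of the 10 tested, 8 had higher and 2 lower estimates in C2-/-, none with an unadjusted edgeR p under 0.05, and the median was 0.51. Without C2-/- mouse 1 the median was -0.01. Nrgn, neurogranin, which platelets also carry, was at 4.14 ± 3.73 CPM in WT and 7.04 ± 7.55 CPM in C2-/-, and the platelet factor gene Pf4 at 3.99 ± 1.16 and 4.01 ± 0.874 CPM. Ppbp, a platelet chemokine (named after its values were seen), had 98, 103, 10 and 18 counts in WT mice 1 to 4 and 213, 20, 28 and 122 in C2-/- mice 1 to 4. Its high mice were those of the globins. The listed platelet genes differed in this. Itga2b was highest in the same mice, whereas Pf4 was at 2.98 CPM in globin-rich C2-/- mouse 4, the lowest of all mice.

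Other white cells left few reads. Of 18 T and NK cell genes only Cd247 was tested (0.843 ± 0.421 CPM in WT and 1.16 ± 0.521 CPM in C2-/-, unadjusted edgeR p above 0.05). Of 9 B cell genes only Cd79a, a chain of the B cell receptor, was tested, at 0.3 ± 0.16 CPM in WT and 1.13 ± 1.04 CPM in C2-/- (log2 fold change 1.90, edgeR adjusted p = 0.884). It was highest in C2-/- mouse 1, at 2.57 CPM. Of 6 tested monocyte genes 5 were higher and 1 lower (median 0.38), and Ace and F13a1 had an unadjusted edgeR p under 0.05, at 43.7 ± 9.44 and 6.13 ± 2.08 CPM in WT and 57.6 ± 6.43 and 9.69 ± 2.68 CPM in C2-/-. Endothelial cells make Ace too, and tissue macrophages make F13a1. The adjusted p-values were 0.899 and 0.904 (edgeR).

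Genes of the vessel wall lay at similar levels in both genotypes. The 12 endothelial genes had 6 higher and 6 lower estimates (median -0.01), none past an unadjusted edgeR p of 0.05. Cdh5, the cadherin of endothelial junctions, was at 105 ± 22.9 CPM in WT and 105 ± 14.2 CPM in C2-/-, and Pecam1 at 67.1 ± 9.94 and 59.1 ± 12 CPM. In WT mouse 2, richest in globin, Cdh5 was at 80.9 CPM, the lowest of the 8 mice, and Pecam1 at 71.9 CPM, among the 3 highest. Kdr, Flt1, Tie1 and Tek were also lowest in WT mouse 2, and the other listed endothelial genes were not. Of the plasma protein genes made mainly by the liver, Alb was at or under 0.0757 CPM, below the level of 3 counts. Only Trf and Serpina1b were tested there, 1 higher and 1 lower, at 7.51 ± 3.12 and 2.5 ± 0.225 CPM in WT and 10.1 ± 3.55 and 1.94 ± 0.302 CPM in C2-/- (unadjusted edgeR p above 0.05). No gene of any of these lists was called at the adjusted threshold.

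Outside the 7 genes, those whose log2 CPM was most like the globin sum over the 8 mice were Hbb-b1 (r = 0.995, rho = 1) and Hbb-b2 (r = 0.984, rho = 1), followed by Aaas (r = 0.973, rho = 0.881), Myl12b (r = 0.96, rho = 0.976) and Atf6b (r = 0.957, rho = 0.929). The last 3 changed little, Aaas between 6.46 and 9.64 CPM, Myl12b between 9.6 and 15.2 CPM and Atf6b between 9.63 and 13.9 CPM. Most like the sum of S100a8 and S100a9 were Vps35 (r = 0.983, rho = 0.786), Hoxc9 (r = 0.981, rho = 0.905), Morf4l1 (r = 0.978, rho = 0.905), Kat8 (r = 0.977, rho = 0.952) and Paxbp1 (r = 0.975, rho = 0.905). Each of these was highest in WT mouse 2, the mouse that was highest for the largest share of all tested genes. These correlations describe 8 libraries and were picked from all tested genes.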

How the data were processed

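RNA-seq of TA muscle from 4 WT and 4 C2-/- mice was analysed, with 1 library per mouse and groups taken from the labels. The authors deposited 1 table of 16687 rows with estimated counts per gene, not normalized, and values per library in TPM (scaled for transcript length) and FPKM. The submitters' processing notes name HISAT, Bowtie2 and DESeq2 and the build GRCm38.p6, while the methods give featureCounts as the counter. In each library some values (5.5% to 6.53%) are not whole, and all were rounded for the tests. The 8 FPKM columns were not used, nor were the columns of the authors' own DESeq2 comparison (fold change, p and q). A row without a gene ID was left out, and 25 symbols were restored from gene IDs. One growth label gives a younger age than the 22 months of the other labels.

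CPM used TMM factors (0.929 to 1.03). The genotypes were compared with edgeR 4.0.16 (R 4.3.3; quasi-likelihood test, default filter, 12542 genes, Benjamini-Hochberg adjustment). The same procedure was also run on counts simulated from the fit to these data. TPM served only for levels between genes. The two-sided exact permutation test over 70 splits of 4 against 4 mice cannot give a p under 0.0286, and gave between 0.343 and 0.857 for the 5 tested genes. Alternatives were RLE factors, limma-voom (limma 3.58.1), DESeq2 1.42.0, no filter, at least 10 counts in every library, a replicate block, each mouse left out, other scalings and a red cell covariate. Rows Hbb-b1 and Hbb-b2 were added after the values were seen, and the planned correlations with Hbb-bs were not computed. Members and the 14 gene lists were chosen with earlier results of these data known. From each list were named up to 4 genes with the smallest p among those with an unadjusted p under 0.05 or, where there was none, the 2 with the highest mean CPM. Likeness named the 5 genes with the highest r. Mice, not repeat libraries, are the replicates, but litters or extraction batches are not given in the sources used here. The floor of 3 counts covers counting error only.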

Additional observations from a re-analysis of the deposited data

Results flagged for a closer look

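In 25 groups of 4 mice a single mouse was looked for that stood apart from the others (by Dixon's criterion, the gap to the nearest mouse against the whole range of the group), and 7 groups held one. About 1 in 20 groups would be marked if values were normally distributed and genes had been picked without regard to them. Here genes were chosen with earlier results of these data known, so the 7 groups cannot be set against that rate. In 6 of the 7 it was WT mouse 2, with 12.8 CPM of S100a8, 16.7 CPM of S100a9, 44.1 CPM of Lcn2, 10 CPM of Retnlg, 5.8 CPM of Ngp and 6.05 CPM of Slc4a1. In the remaining group C2-/- mouse 3 stood apart with 1.31 CPM of Slc4a1. The genes of the neutrophil group vary together, so these are not independent cases. The cause was not tested.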

How the results depend on the processing

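None of the 5 tested genes passed the adjusted threshold in any alternative that gave it an adjusted p, and DESeq2 gave S100a8 none. S100a8 and S100a9 were not tested with at least 10 counts in every library. Log2 fold changes near 0 changed sign. Leaving out 1 mouse moved Hba-a1 between -0.53 and 0.70, Alas2 between -0.80 and 0.47, Hbb-b1 between -0.52 and 0.83 and Hbb-b2 between -0.77 and 0.82, in each case with the highest value without WT mouse 2. It moved Hba-a2 between -1.81 and -0.29, S100a8 between -3.30 and -0.34 and S100a9 between -3.15 and -0.44, and the unadjusted p of both was above 0.05 without WT mouse 2, C2-/- mouse 1 or C2-/- mouse 4. With copies summed, Hba-a2 gave 0.02 and Hbb-b1 -0.01. With limma-voom, Alas2 gave 0.23, Hbb-b2 0.42, S100a8 -1.81 and S100a9 -1.48. Without WT mouse 1 the endothelial list gave a median of 0.10. The correlation of Hbb-b1 with S100a9 lay between -0.48 and 0.49 with 1 mouse left out and was lowest without WT mouse 2. That of Hba-a1 with Hba-a2 lay between 0.64 and 0.97 and passed the threshold only without C2-/- mouse 4, and that of S100a8 with S100a9 fell to 0.66 and lost it without WT mouse 2 and C2-/- mouse 4 together. Calls over all genes numbered 4 in the main test, between 4 and 7 with 1 mouse left out (7 without WT mouse 2) and 38 with DESeq2. The cause of these changes was not tested, beyond the lower number of mice. For deviations from the group means, same-numbered mice of both groups had correlations of 0.267, 0.0423, -0.0505 and 0.0215. Differently numbered mice had correlations between -0.225 and 0.201. These values cannot tell whether the numbers pair the mice. With the replicate block Alas2 gave 0.24, Hbb-b2 0.58, S100a8 and S100a9 -1.67 each (no longer with an unadjusted p under 0.05) and the list of other globin genes a median of 0.45, and 4 genes were called. Of all alternative values, 328 kept their direction and side of the threshold or, where no test applied, moved by less than the spread between mice. Of the rest, 18 changed sign, 6 were counted as moved, and 1 correlation gained and 1 lost the threshold. Values among the 328 could still move far: S100a8 went from -2.89 to -0.34 without WT mouse 2. With 4 mice per group the intervals of the globin genes span more than 2 log2 units, which limits what could be seen.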
